A study of Mus musculus with 6 samples.

Results

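The respiratory chain and ATP synthase of mouse intestine were followed in RNA-seq libraries from mice in which Myc had been deleted and from their controls. The set was defined by name, with no measured value in the rule, but it was chosen with earlier results of these data known. It took protein-coding genes of the deposited count table whose whole GENCODE M21 symbol fits a pattern for Nduf, Sdha to Sdhd, Uqcr, Cox4 to Cox8 or Atp5. Symbols that run on past the pattern, such as Ndufa4l2 and Sdhaf1, were left out. The protein-coding genes of the mitochondrial genome were included. The set holds 105 of the 47643 genes of the table, 92 of them nuclear and 13 mitochondrial. A second gene identifier that GENCODE M21 also names Atp5o was not analysed here. By what their products do, 36 members encode nuclear subunits of complex I, 8 encode complex I assembly factors (the Ndufaf genes), 4 complex II, 8 complex III, 19 complex IV and 17 complex V. Ndufa4 was counted with complex IV, where its protein is found, and Atp5s, which is named like an ATP synthase subunit but is not one, was kept with complex V. The symbols of 4 pseudogenes, Cox6c2, Ndufa11b, Ndufb4c and Ndufs6b, follow the same pattern, and they are not members.

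The tested mice are labelled MycΔIE, ERT2 and are called Myc-deleted here. The controls are labelled Mycfl/fl and carry the floxed allele. Each group has 3 libraries. All were male C57BL/6 mice aged 7 to 8 weeks that received tamoxifen and then a 60% high-fat diet for 2 weeks, the controls included. The labels state neither the driver of the recombinase, nor whether the controls carry it, nor whether animals were pooled, so p-values measure the spread between these libraries. The extraction text names liver, whereas the tissue field and the series design name intestine.

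The chain passes electrons from NADH through complex I, or from succinate through complex II, to coenzyme Q, then through complex III to cytochrome c and through complex IV to oxygen. Complexes I, III and IV pump protons across the inner mitochondrial membrane, and complex V, the ATP synthase, uses the return flow to make ATP. Complexes I, III, IV and V are assembled from proteins of both genomes, whereas every complex II subunit is nuclear. In the intestinal epithelium the chain supplies ATP for nutrient uptake, and Myc is known in other systems as an activator of nuclear genes for mitochondrial proteins.

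Library totals ranged from 9956938 to 11328693 expected counts, the RSEM estimate of reads per gene, and levels are given as CPM, counts scaled to library size with TMM factors. The deleted gene, Myc, stood at 3.29, 4.36 and 5.81 CPM in the Myc-deleted libraries, against 5.86, 6.05 and 6.03 CPM in the controls. Its level did not pass the edgeR test (log2 fold change -0.41 ± 0.22, adjusted p = 0.318, Myc-deleted over control, ± SE as throughout), and p was 0.1 in an exact two-sided permutation of log2 CPM, the lowest value possible with 3 libraries a group. These counts span the whole Myc gene, whose floxed part is not marked in the table. Myc-deleted library 1 stood apart in the members: it was the lowest of all 6 libraries for 68 of the 78 tested nuclear subunits, so medians and counts are also given without it. Across all genes, 12720 passed the filter on low counts and -0.0021 was the median log2 fold change, with quartiles of -0.18 and 0.17.

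Most nuclear members had slightly lower messenger RNA levels in Myc-deleted intestine than in the controls, 8 of them past the test, and those of the mitochondrial genome overlapped between groups. The filter was passed by 100 members, 87 nuclear and all 13 mitochondrial. Of these, 8 were lower in Myc-deleted intestine at an adjusted p under 0.05 (edgeR quasi-likelihood test, Benjamini-Hochberg over all tested genes), and 0 were higher. Over all tested genes, 3.73% were called lower and 4.22% higher, and 8.0% of the members were called lower. The 8 were Cox7a2l, Uqcrfs1, Uqcrc2, Cox4i1, Atp5c1, Ndufa9, Ndufb10 and Atp5g2, all nuclear, with log2 fold changes between -0.62 and -0.27. At an unadjusted p under 0.05, 34 members were lower and 1 was higher, beside 10.4% lower and 11.7% higher over all genes. Bulk RNA cannot tell fewer cells of a type from less RNA per cell.

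Among the 87 tested nuclear members, 70 had a negative log2 fold change and the median was -0.13, beside 50.2% negative and a median of -0.0021 over all tested genes. In 39 nuclear members every Myc-deleted library was below every control library, and in 2 every one was above, beside 13.7% and 14.1% of all genes. For the 67 nuclear members over 50 CPM, 61 were negative and 8 were called lower, beside 44.6% negative and 6.92% called lower among the 3322 tested genes over 50 CPM. Without Myc-deleted library 1 the nuclear median was -0.061, and it ranged from -0.14 to -0.18 when any other library was left out. The number called lower was 3 without Myc-deleted library 1, 2 without Myc-deleted library 2, 4 without Myc-deleted library 3 and 2 without each control library in turn. Cox7a2l and Uqcrfs1 were called in all 6 of those runs, Uqcrc2 without Myc-deleted library 1 or 3, and Atp5g2 without Myc-deleted library 3. Cox4i1, Atp5c1, Ndufa9 and Ndufb10 were called in none of the 6, and their adjusted p reached 0.125, 0.124, 0.122 and 0.142 over all alternatives. The log2 fold changes of all 8 stayed negative in all 15 alternatives.

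**Figure D1:**
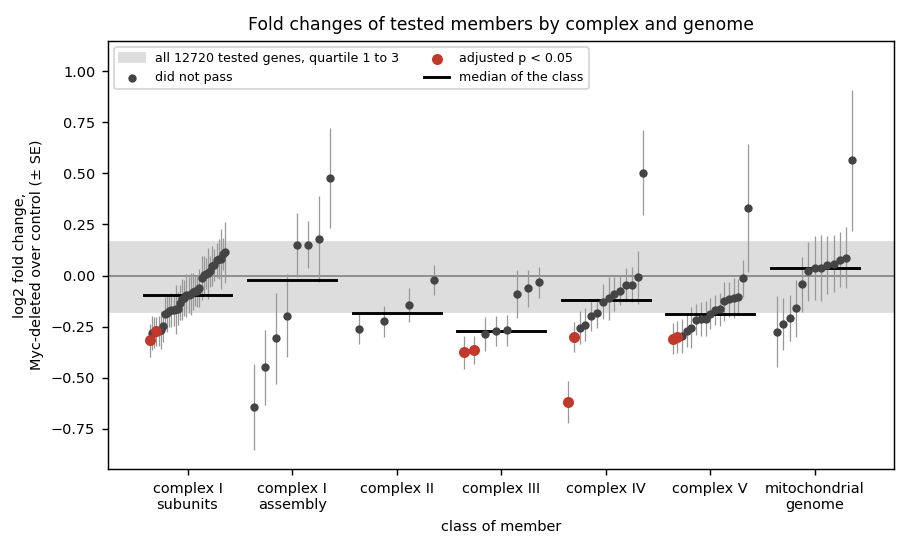
Log2 fold change of each tested member, Myc-deleted over control, by class; points are genes with bars of 1 SE, coloured points passed the adjusted p of 0.05, black lines are class medians, the grey band spans the quartiles of all tested genes (-0.18 to 0.17) and the grey line their median. All 8 complex III points lie below 0, while the 13 mitochondrial genes lie on both sides of it.

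The nuclear genes together took up 1.20, 1.38 and 1.36% of the counts in Myc-deleted libraries 1 to 3, against 1.48, 1.56 and 1.49% in control libraries 1 to 3. The 2 groups did not overlap. Mitochondrial messenger RNAs took up 4.19, 3.52 and 4.09% in the Myc-deleted libraries, against 4.61, 3.45 and 3.85% in the controls, and here the groups overlapped fully. Sums by complex hold the nuclear genes only, so that of complex III leaves out mt-Cytb, which averaged 5364 CPM in Myc-deleted intestine and 5526 CPM in controls. For the nuclear genes of complex III the sum was 1375, 1532 and 1530.5 CPM in the Myc-deleted libraries, against 1738, 1775 and 1747 CPM in the controls. This was the lowest ratio of the nuclear sums, at 0.844. The ratio of summed means was 0.858 for complex V, 0.884 for complex II, 0.884 for complex IV and 0.916 for complex I, against 0.998 for the mitochondrial genome. In each of the 5 nuclear sums every Myc-deleted library was below every control library.

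**Figure D2:**
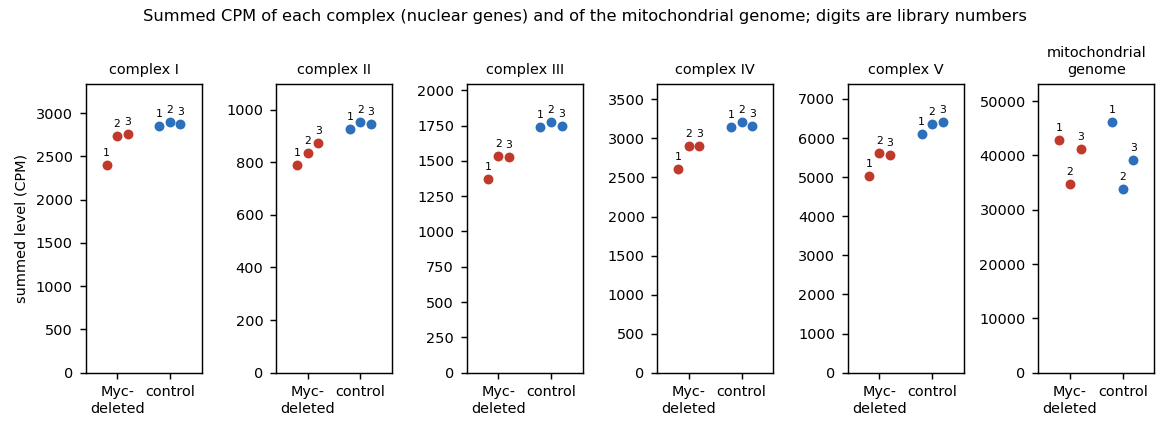
Summed CPM of the nuclear genes of each complex and of the 13 mitochondrial genes, Myc-deleted left and control right; each point is a library marked with its number. Myc-deleted library 1 is the lowest point in each nuclear complex, and in the mitochondrial panel the groups overlap.

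Complex I takes electrons from NADH. Its nuclear core subunits, which hold the flavin and iron-sulfur clusters, all had negative log2 fold changes: 7 of 7, median -0.18, with 0 called. The 29 accessory subunits were more mixed, with 18 negative, a median of -0.079 and 2 called lower. Ndufa9, an accessory subunit of the arm that reaches coenzyme Q (chromosome 6, 126821721 to 126849136), stood at 87.9, 96.1 and 96.4 CPM in the Myc-deleted libraries, against 115, 110.4 and 124 CPM in the controls. It fell (log2 fold change -0.32 ± 0.079, adjusted p = 0.0369), and the groups did not overlap. Ndufb10, an accessory subunit of the membrane arm (chromosome 17, 24722060 to 24724478), stood at 81.2, 86.4 and 84.6 CPM in the Myc-deleted libraries, against 104, 101 and 99.8 CPM in the controls. It also fell (log2 fold change -0.27 ± 0.070, adjusted p = 0.0431), with each Myc-deleted library below each control, but missed the threshold in DESeq2 (adjusted p = 0.0572) and with no filter on low counts (adjusted p = 0.0811).

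Ndufs1, the largest core subunit and carrier of iron-sulfur clusters, lay just outside the threshold. It had 73.9, 80.0 and 83.4 CPM in the Myc-deleted libraries, against 94.5, 96.6 and 97.0 CPM in the controls (log2 fold change -0.28 ± 0.075, adjusted p = 0.0509). Ndufv3, an accessory subunit at the NADH end, was also just outside (log2 fold change -0.27 ± 0.074, adjusted p = 0.0546). The core subunit Ndufv1, which binds NADH and flavin, had a log2 fold change of -0.25 ± 0.075 (adjusted p = 0.0793). All 3 had every Myc-deleted library below every control. Ndufa5, an accessory subunit of the matrix arm, had the most positive log2 fold change of the complex I subunits, with 31.0, 47.0 and 47.0 CPM in the Myc-deleted libraries, against 41.7, 36.6 and 37.2 CPM in the controls. Its groups overlapped and it did not pass (log2 fold change 0.11 ± 0.15, adjusted p = 0.713). Ndufb3, a membrane-arm subunit, was the 1 nuclear subunit in which every Myc-deleted library was above every control (log2 fold change 0.11 ± 0.078, adjusted p = 0.472), also without passing. Levels per kilobase divide by the joined exons of all annotated transcripts of a gene, so every ranking per kilobase depends on that length. By this measure Ndufb9 (128 and 140.4 CPM per kilobase in Myc-deleted intestine and control) and Ndufa1 (135 and 131 CPM per kilobase in Myc-deleted intestine and control) had the highest levels of the nuclear complex I genes. Ndufa1 led in Myc-deleted intestine and Ndufb9 in controls. The counts of Ndufb4 are uncertain, since the near-identical pseudogene Ndufb4c held 177% as many counts as Ndufb4 itself.

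The 8 Ndufaf genes encode assembly factors, which help build complex I and leave it. They showed no common direction: 4 were negative, the median was -0.023 and 0 passed. Their levels were low, between 2.97 and 19.5 CPM as group means, with Ndufaf8 the highest per kilobase, and the median standard error of their log2 fold changes was 0.21 beside 0.085 for the subunits. Ndufaf1, which acts on the membrane arm, had the most negative log2 fold change, at 4.21, 3.62 and 5.72 CPM in the Myc-deleted libraries, against 8.05, 6.92 and 6.23 CPM in the controls. Each Myc-deleted library was below each control, but the adjusted p missed the threshold (log2 fold change -0.64 ± 0.21, adjusted p = 0.104). Ndufaf6 lay at the other end, with 3.93, 4.27 and 4.24 CPM in the Myc-deleted libraries, against 2.09, 3.46 and 3.37 CPM in the controls (log2 fold change 0.48 ± 0.25, adjusted p = 0.295). Here each Myc-deleted library was above each control, also without passing.

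Complex II oxidises succinate and is also an enzyme of the citric acid cycle. All 4 of its genes had negative log2 fold changes and 0 passed. Sdha, the flavoprotein that binds succinate (chromosome 13, 74322254 to 74350280), stood at 298, 303 and 316 CPM in the Myc-deleted libraries, against 346, 378 and 376 CPM in the controls, just outside the threshold (log2 fold change -0.26 ± 0.073, adjusted p = 0.0576). Sdhb, the iron-sulfur subunit, had a log2 fold change of -0.22 ± 0.077 (adjusted p = 0.115), and in both catalytic subunits the groups did not overlap. The membrane anchors Sdhc (log2 fold change -0.14 ± 0.082, adjusted p = 0.351) and Sdhd (log2 fold change -0.022 ± 0.075, adjusted p = 0.897) overlapped between groups. Per kilobase, Sdhd was the most abundant of the 4, at 168 and 170.3 CPM per kilobase in Myc-deleted intestine and control.

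Complex III passes electrons from coenzyme Q to cytochrome c. All 8 of its nuclear genes had negative log2 fold changes, the median was -0.27 and 2 passed. Uqcrfs1 encodes the Rieske iron-sulfur protein, which takes the electron from coenzyme Q (chromosome 13, 30540308 to 30545362). It stood at 173, 189 and 178 CPM in the Myc-deleted libraries, against 235, 228 and 233 CPM in the controls. It fell (log2 fold change -0.36 ± 0.070, adjusted p = 0.0118), the gap exceeded the spread within each group, and over all 15 other settings and leave-one-out runs its adjusted p stayed at or under 0.0493. Uqcrc2, a core protein of the matrix side (chromosome 7, 120635176 to 120659524), stood at 208, 223 and 248 CPM in the Myc-deleted libraries, against 298, 286 and 298 CPM in the controls. It fell as well (log2 fold change -0.38 ± 0.081, adjusted p = 0.0207), with no overlap between groups. Its partner Uqcrc1, the other core protein, had 311, 346 and 343 CPM in the Myc-deleted libraries, against 385, 404 and 417 CPM in the controls and did not pass (log2 fold change -0.27 ± 0.076, adjusted p = 0.0620), although the groups did not overlap.

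The 5 small subunits of complex III were divided. Uqcrh, which lies beside the cytochrome c site, had 227, 241 and 235 CPM in the Myc-deleted libraries, against 292, 291 and 266 CPM in the controls and lay just outside the threshold (log2 fold change -0.27 ± 0.073, adjusted p = 0.0515). Uqcr11 was separated between groups too (log2 fold change -0.29 ± 0.084, adjusted p = 0.0703). Uqcrb, Uqcr10 and Uqcrq overlapped between groups, with log2 fold changes of -0.090, -0.063 and -0.033. Uqcrh was also the most abundant of the 8 nuclear genes per kilobase, at 189.5 and 229 CPM per kilobase in Myc-deleted intestine and control. Without Myc-deleted library 1 the complex III median was -0.22, and both calls held.

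Complex IV, cytochrome c oxidase, held the called member with the largest fall, Cox7a2l (chromosome 17, 83501918 to 83517330). Its product, also called SCAF1 or COX7RP, joins complex III to complex IV in supercomplexes, and C57BL/6 mice are known to carry a shortened form of it. Cox7a2l stood at 75.8, 80.0 and 82.2 CPM in the Myc-deleted libraries, against 107, 140.5 and 118 CPM in the controls. This was 1.54-fold lower in Myc-deleted intestine (log2 fold change -0.62 ± 0.10, adjusted p = 0.00641), with the 3 Myc-deleted libraries close together and the controls more spread. Control library 2 was the highest, and without it the log2 fold change was -0.51. The adjusted p was at most 0.0226 over all 15 other settings and leave-one-out runs. A pseudogene with a near-identical sequence held 6.07% as many counts.

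**Figure D3:**
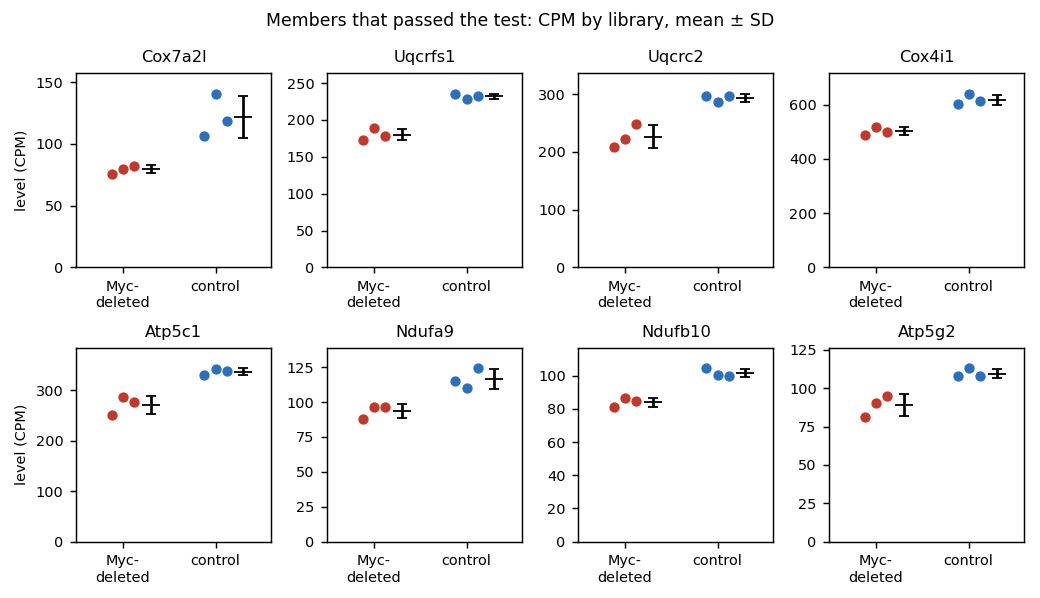
CPM in each library for the 8 members that passed the test, Myc-deleted left and control right, with group means and SD bars; each axis starts at 0. In every panel all 3 Myc-deleted libraries lie below all 3 controls, and the gap is widest for Cox7a2l.

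Cox4i1, the broadly expressed form of the subunit that binds the regulator ATP (chromosome 8, 120668222 to 120674207), stood at 488, 518 and 498 CPM in the Myc-deleted libraries, against 603, 639 and 613 CPM in the controls. It fell (log2 fold change -0.30 ± 0.073, adjusted p = 0.0326), and the groups did not overlap. Cox4i1 shares exon bases with Emc8 on the opposite strand, as Uqcrc2 does with Pdzd9 and Ndufs1 with Eef1b2, and whether strand was used in counting is not stated. Its hypoxia and lung isoform Cox4i2 was not tested, with 0 or 1 count in each library. Of the other 10 constitutive small subunits, all were negative and 0 passed. Cox7b (log2 fold change -0.25 ± 0.081, adjusted p = 0.0930), Cox5b (log2 fold change -0.24 ± 0.082, adjusted p = 0.113), Cox8a (log2 fold change -0.20 ± 0.073, adjusted p = 0.139) and Cox7c (log2 fold change -0.18 ± 0.074, adjusted p = 0.175) had no overlap between groups. Cox5a, Cox6a1, Cox6b1, Cox6c, Cox7a2 and Ndufa4 overlapped, with log2 fold changes between -0.13 and -0.045.

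The tissue isoforms of complex IV separated sharply by level. Cox8b, Cox8c and Cox7b2 had 0 counts in all 6 libraries, which allows at most 0.306 CPM in a single library by a limit of 3 counts, and Cox6a2 had at most 2. Their constitutive partners were abundant. Cox8a, the highest of the nuclear members per kilobase (475 and 545 CPM per kilobase in Myc-deleted intestine and control), averaged 294 ± 16.5 CPM in Myc-deleted intestine and 337 ± 5.42 CPM in controls (SD, n = 3 each), and Cox6a1 averaged 303 ± 13.2 CPM in Myc-deleted intestine and 319 ± 12.8 CPM in controls (SD, n = 3 each). The exception was Cox7a1, known as the heart and skeletal muscle form, at 44.8, 63.2 and 51.6 CPM in the Myc-deleted libraries, against 58.5, 47.6 and 54.5 CPM in the controls (log2 fold change -0.0087 ± 0.13, adjusted p = 0.977), with the groups overlapping. Of 5 striated muscle genes listed beside it, Myh1 and Myh4 had 0 counts in all libraries and Ckm and Tnnt3 had at most 0.432 CPM in any library. Acta1, skeletal muscle actin, was detected in every library, with 31.8, 24.1 and 35.1 CPM in the Myc-deleted libraries, against 32.2, 13.2 and 39.9 CPM in the controls (log2 fold change 0.10 ± 0.32, adjusted p = 0.887). The ubiquitous form Cox7a2 averaged 159 ± 14.8 CPM in Myc-deleted intestine and 174 ± 7.33 CPM in controls (SD, n = 3 each). Cox6b2, known from testis, was the 1 member higher at an unadjusted p under 0.05, at 11.1, 9.01 and 8.03 CPM in the Myc-deleted libraries, against 8.35, 5.01 and 6.54 CPM in the controls, and it did not pass after adjustment (log2 fold change 0.50 ± 0.21, adjusted p = 0.191). Ndufa4l2, a relative of Ndufa4 outside the set, had at most 2 counts in any library.

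Complex V makes ATP in its F1 head, inside which a central stalk turns with the c-ring of the membrane. Of its 16 subunit genes all were negative, and 2 passed. Atp5c1, the central stalk that turns inside the head (chromosome 2, 10056016 to 10080510), stood at 252, 286 and 277 CPM in the Myc-deleted libraries, against 329.5, 343 and 338 CPM in the controls. It fell (log2 fold change -0.31 ± 0.075, adjusted p = 0.0344), and the groups did not overlap. Atp5b, the catalytic beta subunit of the head, had 1418, 1564 and 1569 CPM in the Myc-deleted libraries, against 1692, 1771 and 1807 CPM in the controls (log2 fold change -0.21 ± 0.086, adjusted p = 0.181), and Atp5a1, the alpha subunit, had 1077, 1157 and 1165 CPM in the Myc-deleted libraries, against 1330.5, 1397 and 1445 CPM in the controls, just outside the threshold (log2 fold change -0.30 ± 0.082, adjusted p = 0.0575). In both, every Myc-deleted library was below every control. Atp5o (log2 fold change -0.19 ± 0.078, adjusted p = 0.191) and Atp5f1 (log2 fold change -0.21 ± 0.084, adjusted p = 0.168), of the peripheral stalk that holds the head still, showed the same separation without passing. Per kilobase Atp5a1 was the highest of the nuclear genes of the complex, at 361 and 444 CPM per kilobase in Myc-deleted intestine and control. Atp5b, higher in CPM, came next at 358 and 415 CPM per kilobase. That order depends on the joined exon lengths, 3135 bases for Atp5a1 and 4237 for Atp5b.

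The c-ring protein is encoded by 3 genes whose mature proteins are known to be identical. Atp5g2 (chromosome 15, 102662864 to 102672352) stood at 81.2, 90.4 and 95.1 CPM in the Myc-deleted libraries, against 108, 113 and 108 CPM in the controls, barely inside the threshold (log2 fold change -0.30 ± 0.081, adjusted p = 0.04997). Atp5g2 missed it with RLE scaling (adjusted p = 0.0510) and with no filter on low counts (adjusted p = 0.0570). A near-identical pseudogene held 7.67% as many counts. Atp5g3, the most abundant of the 3 per kilobase, had 313, 353 and 359 CPM in the Myc-deleted libraries, against 395, 424 and 419.5 CPM in the controls and did not pass (log2 fold change -0.27 ± 0.080, adjusted p = 0.0705), and Atp5g1 overlapped between groups (log2 fold change -0.11 ± 0.097, adjusted p = 0.564). Summed, the 3 genes gave 525, 608 and 613 CPM in the Myc-deleted libraries, against 657, 705 and 695 CPM in the controls. Atp5j, of the peripheral stalk, was nearest to 0 among the subunits (log2 fold change -0.014 ± 0.091, adjusted p = 0.949). Atp5s, the non-subunit, was low and did not pass (log2 fold change 0.33 ± 0.31, adjusted p = 0.592).

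Across the 78 tested nuclear subunits the more abundant genes had the more negative log2 fold changes, with Pearson's r = -0.54 between log2 mean CPM and log2 fold change. This is a description over genes that share the same 6 libraries. Between library 1 and the other 2 Myc-deleted libraries the difference ran through most of these subunits, as the map of members by library shows.

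**Figure D4:**
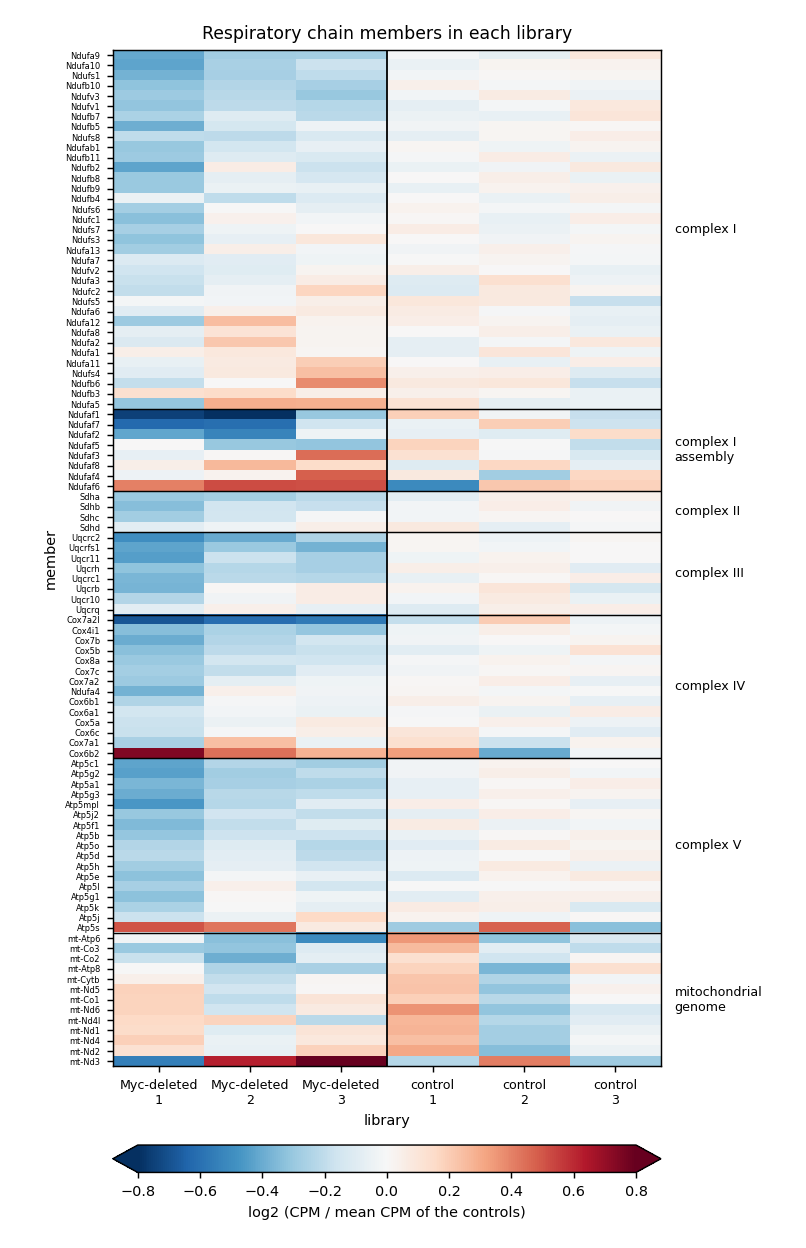
Log2 of CPM over the mean CPM of the controls for each tested member reported here (rows, grouped by class) in each library (columns, Myc-deleted left of control). Myc-deleted library 1 is the lowest column for most nuclear subunits, but not for most complex I assembly factors. The mitochondrial rows at the bottom vary by library within both groups.

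The 13 mitochondrial genes encode core subunits that are made inside the organelle. None passed the test in either direction: the lowest adjusted p was 0.316, 0 had an unadjusted p under 0.05, and 5 of 13 were negative with a median of 0.035. In no gene were the groups separated. The median changed sign, to -0.0058 with upper-quartile scaling, to -0.041 without Myc-deleted library 1 and to -0.11 without control library 2, so no direction is given. Control library 2 and Myc-deleted library 2 were the lowest of their groups for most of these genes.

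The oxidase subunit mt-Co1 dominated, with 46.2% to 49.3% of mitochondrial messenger counts. It stood at 21108, 16215 and 20109.5 CPM in the Myc-deleted libraries, against 21334, 16010.1 and 18710.4 CPM in the controls (log2 fold change 0.035 ± 0.16, adjusted p = 0.923). Per kilobase this came to 12391 and 12094 CPM in Myc-deleted intestine and control, the highest of any member. The cytochrome b gene of complex III, mt-Cytb, came next on counts assigned to the gene itself, though below mt-Co2 and mt-Co3 when nuclear copies are added, with 5681, 4824 and 5588 CPM in the Myc-deleted libraries, against 6447, 4684 and 5447 CPM in the controls (log2 fold change -0.043 ± 0.14, adjusted p = 0.890). Its groups overlapped. Whether the nuclear and the mitochondrial genes of a complex differ in their response was not tested.

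Of the 7 complex I genes in the mitochondrial genome, all had positive values and 0 passed. mt-Nd2 had 1199, 1059 and 1257 CPM in the Myc-deleted libraries, against 1370.0, 872 and 1069.5 CPM in the controls (log2 fold change 0.086 ± 0.15, adjusted p = 0.791). mt-Nd4 had 3260.2, 2757 and 3037 CPM in the Myc-deleted libraries, against 3382, 2372 and 2833 CPM in the controls (log2 fold change 0.077 ± 0.13, adjusted p = 0.794). The other genes outside mt-Nd3 were closer to 0: mt-Nd1 (log2 fold change 0.057 ± 0.14, adjusted p = 0.859), mt-Nd4l (log2 fold change 0.052 ± 0.14, adjusted p = 0.871), mt-Nd5 (log2 fold change 0.020 ± 0.14, adjusted p = 0.955) and mt-Nd6 (log2 fold change 0.037 ± 0.16, adjusted p = 0.919). mt-Nd5 and mt-Nd6 lie on opposite strands and overlap by a few bases at their ends, and whether counting used the strand of the library kit is not stated. Without control library 2 the values of mt-Nd1, mt-Nd2, mt-Nd4, mt-Nd4l, mt-Nd5, mt-Nd6 and mt-Co1 were all negative. The ATP synthase genes mt-Atp6 (log2 fold change -0.27 ± 0.17, adjusted p = 0.396) and mt-Atp8 (log2 fold change -0.16 ± 0.14, adjusted p = 0.550) share bases in the genome, and both values were negative. mt-Co3, an oxidase core subunit, had 1690.5, 1672 and 1931 CPM in the Myc-deleted libraries, against 2475, 1956 and 1802 CPM in the controls (log2 fold change -0.24 ± 0.13, adjusted p = 0.318).

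Part of the reads of the mitochondrial genome were assigned to nuclear copies of it. Chromosome 1 holds a stretch of such copies on the minus strand, from 24611535 to 24616197 in GRCm38, annotated as the pseudogenes Gm28439, Gm10222, Gm28438, Gm28437, Gm10925, Gm28661 and Gm29216. RSEM divides reads that match several genes by an estimate. The copies held 253% as many counts as mt-Co2, 224% as many as mt-Co3, 321% as many as mt-Atp6, 336% as many as mt-Nd3, 54.3% as many as mt-Nd4l and 11.1% as many as mt-Co1. The figure for mt-Co1 includes Gm13340, a further copy of it on chromosome 2. The copy of mt-Nd4 held 0.444%.

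mt-Nd3 shows how little separates a gene from its copy. Over 345 compared bases, mt-Nd3 and Gm28438 differ at 1 position, T3C, counted from 1 at the first base of mt-Nd3, with the base of mt-Nd3 given first. The first 60 bases of each are printed because they hold that single difference, which is in capitals. They lie at chrM:9459-9518 on the plus strand and chr1:24613060-24613119 on the minus strand (GRCm38, from the GENCODE M21 transcripts).
mt-Nd3: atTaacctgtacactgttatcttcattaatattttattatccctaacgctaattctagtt
Gm28438: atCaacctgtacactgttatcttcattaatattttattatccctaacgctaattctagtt

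On its own counts mt-Nd3 was the most variable member, at 36.6, 82.2 and 119 CPM in the Myc-deleted libraries, against 45.6, 70.8 and 43.8 CPM in the controls. Its own share of the joint counts with Gm28438 was 12.8, 29.4 and 38.3% in Myc-deleted libraries 1 to 3, against 14.1, 26.2 and 15.2% in control libraries 1 to 3, so it moved by library within both groups. The log2 fold change was 0.56 ± 0.35 on its own counts (adjusted p = 0.382) and -0.016 ± 0.087 (adjusted p = 0.941) when gene and copy were summed. Without Myc-deleted library 1 mt-Nd3 alone was called higher, with a log2 fold change of 0.91 and adjusted p = 0.0363, beside adjusted p-values of 0.222 to 0.941 over the other 14 settings and runs. For mt-Co2 the sum also turned the sign: 1809, 1561 and 1937 CPM in the Myc-deleted libraries, against 2231, 1832 and 2071 CPM in the controls on its own counts (log2 fold change -0.21 ± 0.11, adjusted p = 0.316), but 7584, 6128 and 7183 CPM in the Myc-deleted libraries, against 7347, 5559 and 6519 CPM in the controls, with Gm28661 (log2 fold change 0.098 ± 0.14, adjusted p = 0.733). With copies included, mitochondrial messenger counts were 5.80, 4.83 and 5.63% of the Myc-deleted libraries, against 6.23, 4.73 and 5.29% of the controls, and the groups again overlapped. Summed with its copy, mt-Atp6 averaged 3952 ± 438 CPM in Myc-deleted intestine and 4162 ± 576 CPM in controls (SD, n = 3 each). For mt-Co3 the summed means were 6014 ± 589 CPM in Myc-deleted intestine and 6443 ± 799 CPM in controls (SD, n = 3 each). Both sums overlapped between groups. No mitochondrial member passed with the sums.

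**Figure D5:**
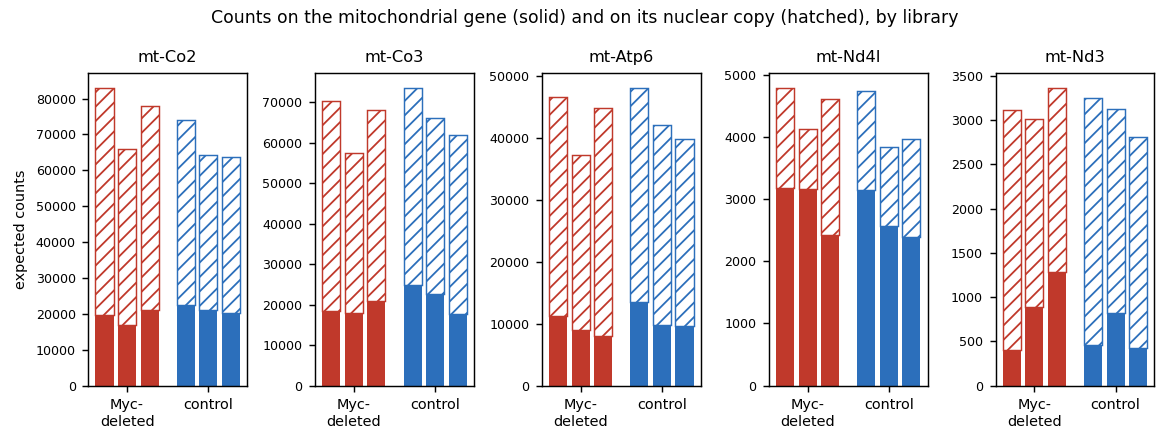
Expected counts on the mitochondrial gene (solid) and on its nuclear copy (hatched) in each library, Myc-deleted left of control. The copy holds most of the joint counts of mt-Co2, mt-Co3, mt-Atp6 and mt-Nd3, and the solid part of mt-Nd3 varies by library in both groups.

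Start-site sequence was compared for the nuclear members because Myc binds the E-box CACGTG and because Nrf1 (a palindromic site core of 10 bases) and ETS factors such as GABP (CCGGAAG) are known regulators of respiratory genes. RefSeq windows (GRCm38.p6) were matched for 74 nuclear members, with 79 windows, and the 250 bases before each start were searched on both strands. The E-box was in 7.59% of member windows, beside 6.02% of all 32851 windows. The Nrf1 core was in 6.33%, beside 0.782% of all windows, and the ETS letters in 17.7%, beside 6.91%. Among the 7 windows of called members, which belong to 6 genes (Uqcrc2 and Cox4i1 were not searched), 0 held the E-box, 0 the ETS letters and 1, that of Atp5g2, the Nrf1 core. The windows of Cox7a2l and Atp5g2 lie wholly inside the annotated spans of these genes, so the bases before their outer ends were not searched. A match is only a match of letters. In 65 of the 79 windows the bases after the start lay somewhere in an annotated transcript of the gene. No overlap between motifs was found in the windows printed here.

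The 5 members with an E-box are shown first, since the deleted gene encodes a factor known to bind it. Each run is 30 bases on the strand of the gene, with the motif in capitals. It opened 44, 238, 147, 72 and 169 bases before the start, in the order printed.
Atp5g1, chr11:96075658-96075687, minus strand: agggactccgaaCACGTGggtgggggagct
Atp5g3, chr2:73911547-73911576, minus strand: acccctgcctggCACGTGcaaggagcgagg
Atp5l, chr9:44920872-44920901, minus strand: ctcaggattcttCACGTGttatcgcgcctc
Ndufa7, chr17:33824488-33824517, plus strand: gcggagaggagtCACGTGagcaggggatgc
Ndufv1, chr19:4012907-4012936, minus strand: agcagagggcgaCACGTGagcctggtttac

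All 5 genes had negative log2 fold changes and 0 passed: -0.11 for Atp5g1, -0.27 for Atp5g3, -0.12 for Atp5l, -0.076 for Ndufa7 and -0.25 for Ndufv1. Negative values were the rule with or without the motif, in 66 of the 78 tested nuclear subunits. The 5 members with the Nrf1 core are printed in the same way, with its 6 central bases in capitals, because this motif was the one most concentrated in member windows relative to all windows. It opened 42, 50, 162, 60 and 113 bases before the start.
Atp5g2, chr15:102671070-102671099, minus strand: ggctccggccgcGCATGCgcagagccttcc
Atp5k, chr5:108434430-108434459, minus strand: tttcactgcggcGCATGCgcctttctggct
Cox6a1, chr5:115349101-115349130, minus strand: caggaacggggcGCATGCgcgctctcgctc
Ndufa11, chr17:56717692-56717721, plus strand: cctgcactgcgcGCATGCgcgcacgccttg
Ndufaf4, chr4:24897960-24897989, plus strand: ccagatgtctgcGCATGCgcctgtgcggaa

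Their log2 fold changes were -0.30 for Atp5g2, which passed, -0.11 for Atp5k, -0.074 for Cox6a1, 0.074 for Ndufa11 and 0.18 for Ndufaf4. The last pair, with positive values, did not pass. The single RefSeq window of Cox7a2l, the called member with the largest fall, lies inside the gene, whose outer end on the minus strand is at 83517330. The bases before that end were not searched. In the 250 bases before the RefSeq start, which are printed whole, none of the 3 motifs was held.
Cox7a2l, chr17:83514334-83514583, minus strand: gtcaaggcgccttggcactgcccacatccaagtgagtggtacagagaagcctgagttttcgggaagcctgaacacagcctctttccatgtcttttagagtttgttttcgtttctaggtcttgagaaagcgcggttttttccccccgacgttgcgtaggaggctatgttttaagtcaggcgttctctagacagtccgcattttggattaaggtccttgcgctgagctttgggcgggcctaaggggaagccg

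Of the genes that build and serve the chain, few passed. Of 116 genes in 12 lists (cytochrome c, coenzyme Q synthesis, assembly factors, mitochondrial transcription, RNA processing, biogenesis regulators and carriers), 107 were tested. Among them 1 was called higher and 3 lower, beside 4.22% and 3.73% of all genes, and the median log2 fold change was -0.12. Lrpprc, which stabilises mitochondrial messenger RNAs, had 20.4, 20.7 and 21.7 CPM in the Myc-deleted libraries, against 27.9, 25.3 and 27.8 CPM in the controls and fell (log2 fold change -0.37 ± 0.091, adjusted p = 0.0369). Grsf1, an RNA-binding protein of mitochondrial RNA granules, fell as well, with 24.0, 22.8 and 24.4 CPM in the Myc-deleted libraries, against 31.0, 31.1 and 27.8 CPM in the controls (log2 fold change -0.34 ± 0.090, adjusted p = 0.0490). In that list of RNA processing genes 13 of 15 tested were negative, and 0 of the 13 mitochondrial messengers passed. Coq8a, which supports coenzyme Q synthesis, had 4.96, 3.69 and 3.52 CPM in the Myc-deleted libraries, against 7.49, 8.79 and 5.80 CPM in the controls (log2 fold change -0.86 ± 0.22, adjusted p = 0.0420). The riser was Cox15, which makes heme A for complex IV, with 66.8, 69.5 and 69.0 CPM in the Myc-deleted libraries, against 58.5, 53.5 and 55.0 CPM in the controls (log2 fold change 0.30 ± 0.075, adjusted p = 0.0377). With 1 library left out, Lrpprc, Grsf1 and Cox15 passed in 0 of 6 runs and Coq8a only without Myc-deleted library 1 or control library 3. Their adjusted p reached 0.124, 0.167, 0.170 and 0.165 over all alternatives, with no change of sign.

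Cytochrome c itself, Cycs, which carries electrons from complex III to IV, had 294, 304 and 361 CPM in the Myc-deleted libraries, against 335, 290.2 and 331 CPM in the controls (log2 fold change 0.0038 ± 0.098, adjusted p = 0.987), and the groups overlapped. 0 of 9 regulators of mitochondrial biogenesis and 0 of 15 tested genes of mitochondrial DNA transcription and replication passed, the second list with 13 negative and a median of -0.19. Of 21 tested complex IV assembly factors, 11 were negative, with a median of -0.011. Complex II assembly factors had a median of -0.022, and complex III assembly factors one of -0.087.

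Enterocyte markers were abundant in every library. Summed over 8 enterocyte genes, the level was 47162, 51757 and 47121 CPM in the Myc-deleted libraries, against 39441, 36992 and 43692 CPM in the controls, and the groups did not overlap. Fabp2 (log2 fold change 0.90 ± 0.18, adjusted p = 0.0132) and Apoa1 (log2 fold change 0.48 ± 0.12, adjusted p = 0.0386) were the markers called higher. Their part in the member results was not tested. Alb, the serum albumin gene that liver makes in abundance, had at most 3.20 CPM in any library, and it was lower in Myc-deleted intestine (log2 fold change -2.15 ± 0.52, adjusted p = 0.0326). The 6 hepatocyte genes listed, Alb included, summed to 195, 218 and 246 CPM in the Myc-deleted libraries, against 158, 179 and 200.2 CPM in the controls, and the groups overlapped. Nearly all of that sum was Cps1, a urea cycle gene that enterocytes also express, with 189.9, 215 and 242 CPM in the Myc-deleted libraries, against 153, 173 and 194 CPM in the controls (log2 fold change 0.31 ± 0.11, adjusted p = 0.128). Of the 4 hepatocyte genes tested, 3 had positive log2 fold changes and none of those passed. All 6 smooth muscle genes listed had negative log2 fold changes, and 0 passed. Summed over these 6 genes, the level was 20.7, 15.9 and 19.6 CPM in the Myc-deleted libraries, against 28.7, 91.8 and 17.1 CPM in the controls, with control library 2 apart from the rest. That library was the highest of 6 for 25 of 78 nuclear subunits, beside 21 for control library 3 and 14 for control library 1. With control library 2 left out, members called lower numbered 2 and the nuclear median was -0.14. Leukocyte genes summed to 142, 142 and 135 CPM in the Myc-deleted libraries, against 151, 203 and 166 CPM in the controls, and these groups did not overlap. All 6 leukocyte genes had negative log2 fold changes, with 1 called lower. Crypt and cycling genes summed to 106, 123 and 134 CPM in the Myc-deleted libraries, against 127, 146 and 139 CPM in the controls, and the groups overlapped. The part of these cell types in the member results was not tested either. Brown fat and neuronal markers were near 0, at no more than 1.38 CPM when summed in any library.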

How the data were processed

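Intestinal RNA from 3 Myc-deleted and 3 control libraries was prepared with a stranded mRNA kit, per the labels. The deposited table holds RSEM expected counts per gene, not scaled between libraries, which the authors made with cutadapt, STAR, Picard and RSEM on mm10, per the submitters' processing notes. No source used here gives tool versions, the gene annotation or any use of strand in counting.

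Gene identifiers were named and placed with GENCODE M21 (GRCm38). Expected counts were rounded and analysed in R 4.3.3. Genes passing filterByExpr (minimum count 10, minimum total 15) received TMM factors, and the quasi-likelihood F-test of edgeR 4.0.16 compared Myc-deleted with control libraries. P-values were adjusted by Benjamini-Hochberg across the 12720 genes, and 0.05 was the threshold. Each SE was obtained by dividing the size of the log2 fold change by the root of its F statistic. Log2 CPM used a prior count of 2. Alternatives used DESeq2 1.42.0, limma 3.58.1 voom, other scalings and filters, a replicate block and each library left out. Copies were transcripts of other genes matching at 97% identity or more over at least 200 bases. Limits from 3 counts cover counting error only. The fit was tested on simulated counts.

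The rule for named genes took all 13 mitochondrial genes and, in each class, the genes past the threshold, the highest per kilobase, both extremes of fold change and the isoform groups, plus up to 3 genes past the threshold in each pathway list; other members named were chosen after their values were seen. The members and lists were chosen with earlier results of these data known. 1 member enters the counts and medians but is not reported here by name. All 6 sample columns were used. Nothing in the labels says whether libraries came from separate or pooled mice, so p-values measure the spread between these libraries.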

Additional observations from a re-analysis of the deposited data

How the results depend on the processing

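Members called lower numbered 18 with upper-quartile scaling and 4 with a replicate block, beside 8, all of them nuclear, and the other 7 settings with every library gave 7 to 12. The 8 calls all held with upper-quartile scaling, which moved the median of all genes to -0.043, and 4 of them held with the block, which ended those of Ndufa9, Ndufb10, Cox4i1 and Atp5g2. Over all genes same-numbered libraries deviated together only weakly (correlations 0.026, 0.052 and 0.019), although each correlated best with its own number. Whether same-numbered libraries were paired or shared a batch was not tested. The cause of these changes was not tested. With 1 library left out, members called lower numbered 2 to 4 (nuclear members 2 to 4), members called higher 0 to 1 and mitochondrial members called higher 0 to 1, and all genes called numbered 229 to 503 higher and 233 to 447 lower, with fewer libraries in each run. Upper-quartile scaling turned the log2 fold changes of mt-Co1 (-0.0058), mt-Nd5 (-0.020) and mt-Nd6 (-0.0031), and summing genes with their nuclear copies, an alternative chosen after seeing the data, turned mt-Co2 (0.098) and mt-Nd3 (-0.016). Leaving out 1 library gave log2 fold changes on both sides of 0 for 10 named genes: mt-Co1 (-0.075 to 0.14), mt-Cytb (-0.16 to 0.082), mt-Nd1 (-0.073 to 0.21), mt-Nd2 (-0.069 to 0.27), mt-Nd4 (-0.053 to 0.21), mt-Nd4l (-0.059 to 0.21), mt-Nd5 (-0.13 to 0.15), mt-Nd6 (-0.11 to 0.26), Sdhd (-0.068 to 0.017) and Cox7a1 (-0.16 to 0.10). No mitochondrial member passed in any setting with all libraries. At this depth 5 of the 105 members, with at most 2 counts in any library, could not be tested.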

Other observations

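The mitochondrial ribosomal RNAs, which are not members, had lower means in Myc-deleted intestine without passing the edgeR test. mt-Rnr1, the small ribosomal RNA, had 839, 539 and 857 CPM in the Myc-deleted libraries, against 982, 897 and 878 CPM in the controls. Its groups did not overlap (log2 fold change -0.30 ± 0.16, adjusted p = 0.297). mt-Rnr2, the large ribosomal RNA, had 1511, 1004 and 1342 CPM in the Myc-deleted libraries, against 1725, 1509 and 1586 CPM in the controls (log2 fold change -0.32 ± 0.14, adjusted p = 0.210). Myc-deleted library 2 was the lowest for both.

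Ndufb4c, a pseudogene whose symbol follows the pattern of the members, had more counts than Ndufb4, the complex I gene that it copies. It stood at 28.2, 35.1 and 29.7 CPM in the Myc-deleted libraries, against 29.1, 31.6 and 27.3 CPM in the controls (log2 fold change 0.078 ± 0.11, adjusted p = 0.727). Ndufb4 itself had 17.3, 15.5 and 16.6 CPM in the Myc-deleted libraries, against 17.9, 17.2 and 18.5 CPM in the controls (log2 fold change -0.12 ± 0.10, adjusted p = 0.556). Neither passed.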
